A study of Mus musculus with 8 samples.

Results

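c-Jun binding was examined around 9 genes that encode basic leucine zipper partners or relatives of c-Jun: Atf1, Atf2, Atf3, Atf4, Atf7, Creb1, Jdp2, Batf and Batf3. Peaks of c-Jun were assigned to a gene when the centre of the peak lay within 50 kb of any of its annotated transcription start sites (TSSs) in mm10. By this rule 41 of 16166 peaks in EpiSCs and 15 of 6032 peaks in kEpiSCs belonged to the 9 genes, and no peak was near more than 1 of them. Their binding is no part of the rule, though the genes were picked with earlier results of these data known.

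The data were c-Jun ChIP-seq of mouse epiblast stem cells (EpiSCs), which model the primed pluripotency of the post-implantation epiblast, and of kEpiSCs, which are EpiSCs carrying a Klf4 transgene. For each of the lines 2 immunoprecipitated and 2 input samples were sequenced, which makes 8 libraries. Both lines were grown with Activin A and bFGF. The labels gave a strain for the ChIP libraries of EpiSCs, CBA/CaJ X C57BL/6J, and none for those of kEpiSCs. The study's methods instead describe EpiSCs from embryos of females of another strain crossed with OG2 males. OG2 is the Oct4-GFP reporter that kEpiSCs are said to carry, so the reporter is not particular to kEpiSCs. In kEpiSCs the Klf4 transgene was delivered by lentivirus and driven by the constitutive CAG promoter, and transduced cells were kept by G418 selection. The antibody was given as c-Jun in the sample labels and in the study's methods, whereas the protocol text of the labels named H3K27ac. One list of peaks per line was used. It is named with replicate 1, and whether it rests on that replicate or on both pooled is not stated, so the spread between replicates is unknown, no test between the lines was possible, and all intervals below cover counting error only. With no expression measured here, neither the identity of the cells nor the RNA level of the 9 genes could be checked.

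Leucine zipper proteins bind DNA as dimers, and the partner sets the preferred site. c-Jun with a Fos protein prefers the AP-1 site, the word TGACTCA, which reads as TGAGTCA on the opposite strand, whereas c-Jun with an ATF protein can bind the cAMP response element (CRE), the palindrome TGACGTCA, which is longer by a single base. Among the 9 genes, Atf2 and Atf7 encode stress-kinase targets that pair with c-Jun, Atf3 an immediate early stress factor, Atf4 the effector of the integrated stress response, Atf1 and Creb1 the cAMP-responsive activators, Jdp2 a repressor that pairs with c-Jun, and Batf and Batf3 factors of lymphocytes and dendritic cells that also pair with Jun proteins. Both words were searched on both strands, and a match describes the sequence under a peak, not which dimer bound it.

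Shown first are the sequences under the peaks that were found in both lines, since these were seen in separate lists. Capitals mark exact AP-1 sites, coordinates are mm10, and names give the gene and the distance of the kEpiSC peak from the TSS.
Atf3, 6784 bp upstream, chr1:191190028-191190074, plus strand: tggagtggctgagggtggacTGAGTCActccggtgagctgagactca
Atf3, 10578 bp upstream, chr1:191193780-191193826, plus strand: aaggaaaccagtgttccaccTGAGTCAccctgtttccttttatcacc
Atf3, 32995 bp upstream, chr1:191216285-191216331, plus strand: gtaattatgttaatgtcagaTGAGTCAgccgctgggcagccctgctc
Atf3, 38850 bp upstream, chr1:191222168-191222214, plus strand: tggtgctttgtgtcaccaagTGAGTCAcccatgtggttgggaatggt
Atf3, 41131 bp upstream, chr1:191224432-191224460, plus strand: ggcggggctgaTGACTCAcgcagtcgggc
Jdp2, 15692 bp downstream, chr12:85615685-85615731, plus strand: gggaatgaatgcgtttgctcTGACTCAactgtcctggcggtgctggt
Atf4, 35672 bp upstream, chr15:80219481-80219527, plus strand: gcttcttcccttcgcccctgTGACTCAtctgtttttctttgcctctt
Atf4, 48725 bp downstream, chr15:80303891-80303953, plus strand: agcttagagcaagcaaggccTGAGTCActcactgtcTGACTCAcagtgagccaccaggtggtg
Atf1, 18320 bp downstream, chr15:100246158-100246204, plus strand: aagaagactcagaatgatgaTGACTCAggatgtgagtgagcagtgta
Atf1, 19720 bp downstream, chr15:100247518-100247564, plus strand: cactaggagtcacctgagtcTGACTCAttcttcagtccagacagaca
Atf1, 23706 bp downstream, chr15:100251523-100251664, plus strand: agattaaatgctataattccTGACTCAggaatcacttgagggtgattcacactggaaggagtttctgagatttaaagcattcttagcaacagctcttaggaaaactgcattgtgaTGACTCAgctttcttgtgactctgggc

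In the next sequence, a whole kEpiSC peak inside Atf1, capitals mark the full CRE. It was the only one under any peak of the 9 genes, and the same 8 bases lay under the overlapping EpiSC peak.
Atf1, 27009 bp downstream, chr15:100254768-100254967, plus strand: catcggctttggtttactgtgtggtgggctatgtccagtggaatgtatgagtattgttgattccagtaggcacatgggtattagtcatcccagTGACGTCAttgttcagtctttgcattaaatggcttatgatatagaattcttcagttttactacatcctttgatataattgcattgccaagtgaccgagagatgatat

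The strongest EpiSC peaks with an exact AP-1 site at the 4 genes without any kEpiSC peak but with such a site are given for comparison, again with the site in capitals.
Atf2, 32209 bp downstream, chr2:73860367-73860413, plus strand: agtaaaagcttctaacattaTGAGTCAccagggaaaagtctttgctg
Atf7, 35528 bp downstream, chr15:102589891-102589937, plus strand: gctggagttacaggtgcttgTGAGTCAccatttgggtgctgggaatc
Batf, 43381 bp downstream, chr12:85730063-85730109, plus strand: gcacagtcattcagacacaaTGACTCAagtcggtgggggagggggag
Batf3, 27226 bp upstream, chr1:191071100-191071146, plus strand: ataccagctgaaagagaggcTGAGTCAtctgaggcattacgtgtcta

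In EpiSCs, all 9 genes had at least 1 c-Jun peak within 50 kb, where 50.7% of 21000 protein-coding genes did. Peaks were unevenly spread: Atf1 and Atf3 had 9 each, Batf3 7, Atf4 6, Jdp2 4, Atf7 3, and Atf2, Creb1 and Batf 1 each. The median was 4 peaks per gene in EpiSCs, against 1 over all protein-coding genes. Having 9 or more peaks placed Atf1 and Atf3 among 0.79% of genes, and having 7 placed Batf3 among 1.96%. In kEpiSCs, 4 of the 9 genes had a peak, where 27% of all genes did: Atf3 had 6, Atf1 4, Jdp2 3 and Atf4 2, and the remaining genes had none, so that the median was 0, as over all genes. Only 0.276% of genes had as many kEpiSC peaks as Atf3, and 1.51% as many as Atf1. The kEpiSC list is the shorter of the pair, and the part of this in the missing peaks was not tested.

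**Figure D1:**
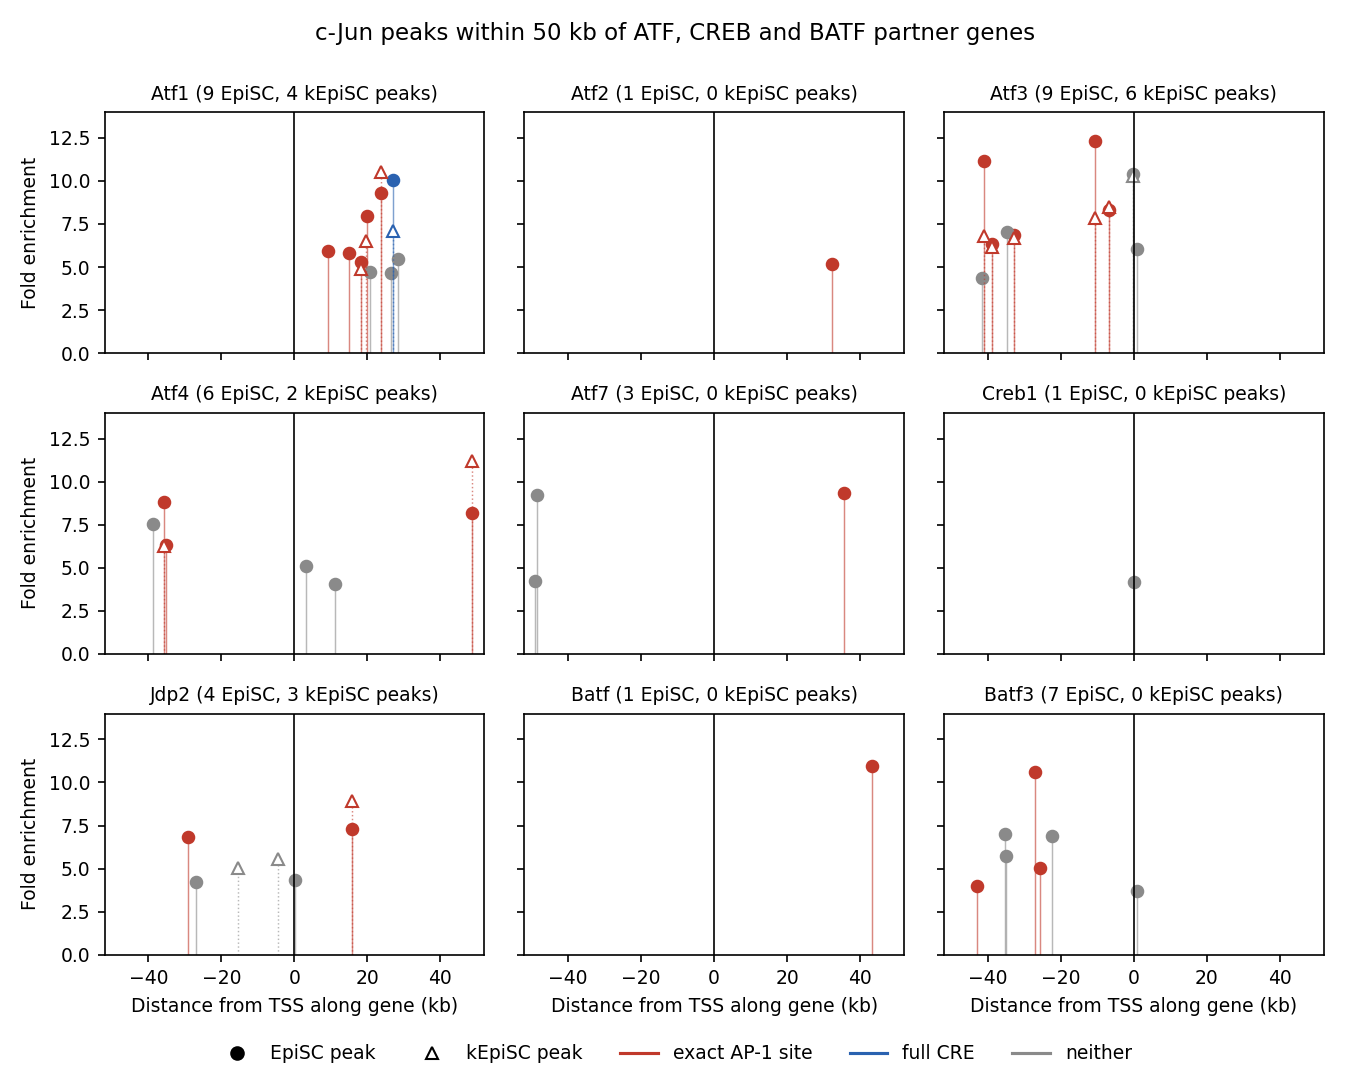
Each panel shows 1 gene, with the distance of each peak's centre from the TSS along the gene in kb (negative is upstream) on the x axis and the fold enrichment over local background on the y axis. Filled circles are EpiSC peaks and open triangles kEpiSC peaks, coloured by whether the peak holds an exact AP-1 site, a full CRE or neither; the 9 Atf1 peaks lie downstream of its TSS, and 8 of the 9 Atf3 peaks lie at or upstream of its TSS.

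Close to a TSS the counts were smaller. A peak within 1 kb of the TSS was found in EpiSCs at Atf3, Creb1, Jdp2 and Batf3, that is at 4 of 9 genes, where 9.25% of all genes had one. Those at Creb1, Jdp2 and Batf3 were weak, on 7, 6 and 6 reads, and 93.4%, 89.6% and 97.4% of the list scored higher. In kEpiSCs only Atf3 of the 9 genes had one, where 2.46% of all genes did. Of 14 other ATF, CREB and BATF family genes, 5 had one in EpiSCs and 2 in kEpiSCs. Of 7 Jun and Fos genes, 4 and 2 did. By position, 6 EpiSC member peaks were in promoters (from 1000 bp upstream to 100 bp downstream of a TSS), 17 in introns and 15 between genes, and the other 3 overlapped coding exons. The same split was not made over the whole list, so these counts do not set the 9 genes apart.

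Atf3, whose product is induced early by many stresses, combined a promoter peak with an upstream cluster. Its TSS is at chr1:191183333 on the minus strand. The promoter peak spanned chr1:191183208-191183743 in EpiSCs, with 10.4-fold enrichment and 28 reads at its summit, and chr1:191183238-191183708 in kEpiSCs, with 10.3-fold enrichment and 20 reads. The EpiSC and kEpiSC summits were 5 bp apart, and only 4.54% of the EpiSC list and 15.2% of the kEpiSC list scored higher. This peak held neither an exact AP-1 site nor a full CRE. Its closest match to the CRE, TGACGTAA, differed at 1 base and lay partly outside the sequence printed below. That word was centred 290 bp from the EpiSC summit and 285 bp from the kEpiSC summit. The nearest match to the AP-1 word differed from it at 1 base, was centred 9 bp from the EpiSC summit and 4 bp from the kEpiSC summit, and is the first word in capitals below. The second is a C/EBP-ATF composite site (CARE), the word TGATGCAA or its reverse complement TTGCATCA, the kind of site that ATF4 binds with a C/EBP protein. It was 190 bp from the EpiSC summit and 185 bp from the kEpiSC summit.
Atf3 promoter, chr1:191183341-191183633, minus strand: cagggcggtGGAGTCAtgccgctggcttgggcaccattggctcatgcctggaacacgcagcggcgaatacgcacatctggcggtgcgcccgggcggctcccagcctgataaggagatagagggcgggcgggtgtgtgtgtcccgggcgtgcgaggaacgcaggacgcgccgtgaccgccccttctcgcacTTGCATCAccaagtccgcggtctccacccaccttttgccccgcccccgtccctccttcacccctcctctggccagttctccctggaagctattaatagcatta
A second CARE lay in the first exon, also under the peak but 360 and 355 bp from these summits.
Atf3 exon 1, chr1:191183256-191183283, minus strand: ttaaaaggggTGATGCAAcgcgctccca
Exact CAREs were found in this peak alone among the member peaks of either line, compared with 1.49% of all EpiSC peaks and 1.67% of all kEpiSC peaks. A CARE was also in 1 of the 3 RefSeq promoter sequences of Jdp2, at chr12:85599166-85599465. Of 32851 RefSeq mouse promoter sequences, 0.895% held a CARE, 5.20% an exact AP-1 site and 1.79% a full CRE.

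A smaller EpiSC peak lay 850 bp downstream of the Atf3 TSS, in intron 1 of 3, with 6.02-fold enrichment and 11 reads. Its closest match to the CRE, TGACGTCT, differed at 1 base and was centred 29 bp from the summit. The other 7 Atf3 peaks in EpiSCs were upstream, from 6728 to 41600 bp, and 5 of them held an exact AP-1 site. All 5 of those were found in kEpiSCs, with the same site in each case. By score the highest was at chr1:191224197-191224543, 41037 bp upstream and in the promoter of the non-coding gene D730003I15Rik, with 11.2-fold enrichment, 30 reads and an AP-1 site 2 bp from the summit. The kEpiSC peak there had 6.79-fold enrichment and 25 reads. By fold the highest was the peak 10634 bp upstream, at 12.3-fold with 17 reads in EpiSCs and 7.86-fold with 19 reads in kEpiSCs. Its AP-1 site was 1 bp from the EpiSC summit but 166 bp from the kEpiSC summit. D730003I15Rik had the nearest TSS for 5 of the 9 EpiSC peaks, so the distance rule alone assigns these to Atf3.

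Atf1, a cAMP-responsive activator, had the densest group. All 9 EpiSC peaks lay inside the gene, from 9310 to 28381 bp downstream of the TSS at chr15:100227859, and no other protein-coding gene had a TSS within 50 kb of its own. None was within 1 kb of the TSS. Fold enrichment ranged from 4.66 to 10.1, on 6 to 18 reads, and 5 of the 9 peaks held an exact AP-1 site. The full CRE was in intron 6 of 6, at chr15:100254861-100254868, under the Atf1 peak with the highest score in EpiSCs. That peak spanned chr15:100254772-100255015, with 10.1-fold enrichment and 18 reads, and 10.7% of the list scored higher. In kEpiSCs it spanned chr15:100254768-100254967, with 7.09-fold enrichment and 17 reads, and 43.2% scored higher. In both lines the summit was the same base, 6 bp from the centre of the CRE, and no exact AP-1 site was present. The closest match to the AP-1 word, TTAGTCA, differed at 1 base and was centred 8 bp from this summit. Its nearest TSS was that of Tmprss12, 25943 bp away, slightly closer than that of Atf1. In kEpiSCs the highest-scoring Atf1 peak was instead at chr15:100251392-100251738 in intron 3 of 6, with 10.5-fold enrichment, 18 reads and 2 AP-1 sites, against 9.29-fold and 14 reads in EpiSCs.

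Atf4, the effector of the integrated stress response, is a short gene of 2362 bp with 3 other protein-coding genes that start within 50 kb. None of its 6 EpiSC peaks was within 1 kb of its TSS at chr15:80255184, and its own TSS was the nearest for 1 of them, 3155 bp downstream with 5.12-fold enrichment and 7 reads. The highest-scoring EpiSC peak was between genes at chr15:80219308-80219590, 35735 bp upstream with Mief1 the nearest TSS, and had 8.85-fold enrichment, 16 reads and 1 AP-1 site. Its kEpiSC counterpart had 6.28-fold enrichment and 23 reads. The order was the other way at the peak in intron 2 of 36 of Cacna1i, a calcium channel gene, where EpiSCs had 8.21-fold enrichment on 11 reads and kEpiSCs, at chr15:80303707-80304111, had 11.2-fold on 20 reads. The EpiSC peak there was 659 bp wide and held 3 AP-1 sites, and the kEpiSC peak held 2 of these. Its summits were 384 bp apart, the widest gap of the shared peaks.

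Jdp2, which encodes a repressor that pairs with c-Jun, has 3 annotated TSSs between chr12:85599105 and chr12:85600018. Its 4 EpiSC peaks had 4.23- to 7.28-fold enrichment and its 3 kEpiSC peaks 5.06- to 8.94-fold. Only the peak in intron 2 of 3 was found in both lines and had the highest score in each, at chr12:85615632-85615858 in EpiSCs with 7.28-fold enrichment and 10 reads, and at chr12:85615645-85615774 in kEpiSCs with 8.94-fold and 16 reads. Its AP-1 site was 9 bp from the EpiSC summit. The promoter peak, 134 bp downstream of the first TSS, was in the EpiSC list alone, with 4.34-fold enrichment on 6 reads and no AP-1 or CRE site. Jdp2 was also the only gene of the 9 with peaks in the kEpiSC list alone, 15590 and 4621 bp upstream, on 8 and 9 reads.

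Batf3, a dendritic cell factor, had 7 EpiSC peaks and no kEpiSC peak, the nearest kEpiSC peak being 67064 bp away. A single one of the 7 had Batf3 as its nearest TSS, a peak in intron 1, 750 bp downstream, with 3.70-fold enrichment on 6 reads, and 97.4% of the list scored higher. The others were nearest to Tatdn3 or Nsl1, and the highest-scoring was in a coding exon of Nsl1 at chr1:191071045-191071331, with 10.6-fold enrichment, 15 reads and 1 AP-1 site. Batf, a lymphocyte factor, had 1 EpiSC peak at chr12:85730021-85730180, between genes and nearest to Flvcr2, with 10.9-fold enrichment, 15 reads and an AP-1 site 15 bp from the summit. Just beyond the limit, 59277 bp from the Batf TSS in EpiSCs and 59235 bp in kEpiSCs, lay peaks with 3.47- and 12.7-fold enrichment.

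Of the stress-kinase targets that pair with c-Jun, Atf2 had 1 EpiSC peak, as many as the median gene, and Atf7 had 3, a count that 16.7% of genes reached. The Atf2 peak was in intron 5 of 14 at chr2:73860373-73860487, with 5.21-fold enrichment, 9 reads and 1 AP-1 site, and the next EpiSC peak was 523624 bp from its TSS. One Atf7 peak, in intron 2 of 11 at chr15:102589847-102590025, had 9.32-fold enrichment, 13 reads and 1 AP-1 site. The highest-scoring was at chr15:102673868-102674179, 48560 bp upstream and nearest to Mir688, with 9.23-fold enrichment, 14 reads and neither site, and the other, 49199 bp upstream, had 4.26-fold on 6 reads. The nearest Atf7 peak was 35528 bp from its TSS, and just outside the limit EpiSCs had a peak at 53211 bp with 10.6-fold and kEpiSCs at 53125 bp with 7.89-fold enrichment. Creb1, the cAMP-responsive activator that pairs with ATF1, had 1 EpiSC peak, over its TSS at chr1:64532753-64532921, with 4.16-fold enrichment on 7 reads and neither site, and 93.4% of the list scored higher. The next peak, 68917 bp away in EpiSCs and 68805 bp in kEpiSCs, had 4.63- and 7.86-fold enrichment.

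An exact AP-1 site was present in 21 of the 41 EpiSC peaks (51.2%, 95% Wilson interval 36.5 to 65.7), beside 51% of the whole list. In windows of the same width 2 kb to either side of the member peaks, 1 of 82 did (1.22%, interval 0.216 to 6.59). Over such windows of the whole EpiSC list 4.69% did, within that interval. In kEpiSCs 11 of the 15 peaks had an AP-1 site (73.3%, interval 48.0 to 89.1), and 63.4% of the list did, within the interval. The full CRE was present in 1 of 41 EpiSC peaks (2.44%, interval 0.432 to 12.6; 2.52% of the list) and in 1 of 15 kEpiSC peaks (6.67%, interval 1.19 to 29.8; 2.79% of the list). For both words the share over the list lay inside the interval of the member peaks in each line. Allowing 1 mismatch, with the shares over the lists added after the data were seen, 7 of 41 EpiSC peaks held a CRE-like word (17.1%), against 18.8% of the list.

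**Figure D2:**
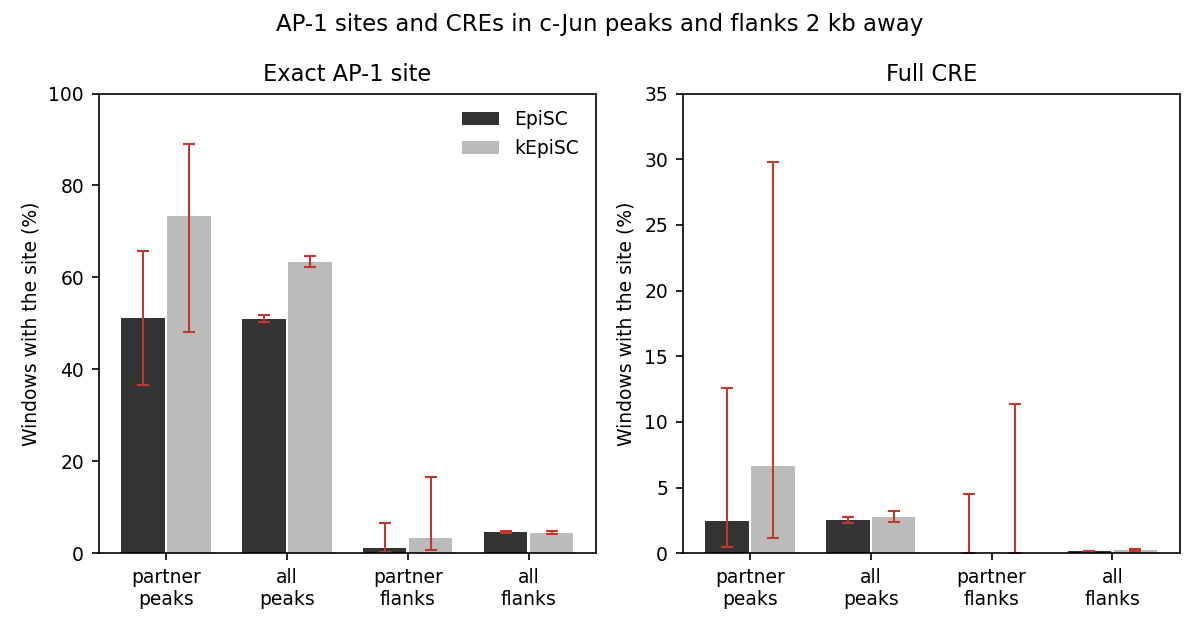
Bars give the percentage of windows holding an exact AP-1 site (left) or a full CRE (right, on a smaller scale) for the peaks at the 9 genes, all peaks, and windows of equal width 2 kb to either side of each, in EpiSCs (dark) and kEpiSCs (grey), with 95% Wilson intervals in red. The member peaks and all peaks of a line have overlapping intervals in both panels. The flanks are low, with 1.22% of the EpiSC member flanks and 4.69% of the flanks of all EpiSC peaks holding an AP-1 site.

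In a split by distance that was added after the peaks had been seen, peaks close to a protein-coding TSS held none of the AP-1 sites, while the Atf3 peak at the promoter of the non-coding D730003I15Rik held 1. Of the EpiSC member peaks within 1 kb of any protein-coding TSS, 0 of 7 held an exact AP-1 site (interval up to 35.4%), and of those farther away 21 of 34 did (61.8%, interval 45.0 to 76.1). Over the whole EpiSC list these shares were 19.0% and 55.3%. The 24 AP-1 sites in EpiSC member peaks comprised 13 TGACTCA and 11 TGAGTCA words on the plus strand, and all 13 sites in kEpiSC member peaks were among the 24. The nearest AP-1 site lay a median of 36 bp from the EpiSC summit over the 21 peaks, against 23 bp over the list. The shortened CRE, TGACG or CGTCA, which is also part of the full CRE, was present in 16 of 41 EpiSC member peaks (39.0%, interval 25.7 to 54.3) and in 19.7% of the list, and in 6 of 15 kEpiSC member peaks (40%, interval 19.8 to 64.3) and 20.4% of that list. Member peaks were wider than the list, with a median of 226 bp against 190 bp in EpiSCs, and the part of width in this share was not tested. This word was added to the search after the peaks had been seen.

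The median fold enrichment of the 41 EpiSC peaks was 6.35 (range 3.70 to 12.3), against 6.16 over the list, and summits had a median of 10 reads in both. In kEpiSCs the median of the 15 peaks was 6.79 (range 4.88 to 11.2) on 17 reads, against 7.23 on 14 reads over the list. Of the EpiSC peaks 4 ranked in the top 10% of their list by score, and of the kEpiSC peaks 0 did. EpiSC peaks with an AP-1 site had a median of 7.28-fold enrichment (21 peaks) and those without 5.30-fold (20 peaks).

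Peaks found in both lines were the stronger EpiSC peaks. Of the 41, 13 overlapped a kEpiSC peak (31.7%, interval 19.6 to 47.0), where 28.3% of the whole EpiSC list did, and 13 of the 15 kEpiSC peaks overlapped an EpiSC peak (86.7%, interval 62.1 to 96.3), where 75.8% of the kEpiSC list did. The 13 had a median of 8.32-fold enrichment and 14 reads in EpiSCs, and the 28 that were not found had 5.62-fold and 8.5 reads. When the EpiSC list was divided into 4 parts in order of rising fold, 0 of 10, 1 of 9, 4 of 10 and 8 of 12 member peaks were found in kEpiSCs, while over the list the shares were 12.1%, 16.6%, 25.4% and 57.6%. Both rose from the lowest to the highest part. Among the peaks with no kEpiSC counterpart, those with the most reads were the Batf peak and a Batf3 peak, with 15 each, and an Atf7 peak with 14.

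**Figure D3:**
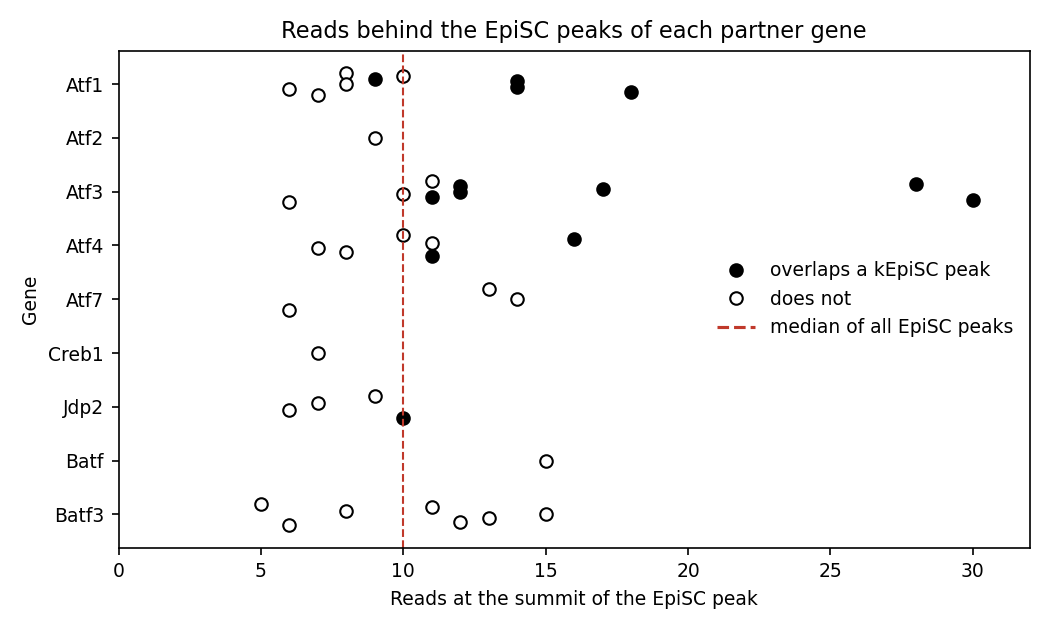
Each point is 1 EpiSC peak, with the number of reads at its summit on the x axis and its gene on the y axis; filled points overlap a kEpiSC peak, open points do not, and the dashed line is the median of all EpiSC peaks (10 reads). The 5 EpiSC peaks with at least 16 reads, at Atf3, Atf1 and Atf4, were all found in kEpiSCs.

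At the 13 shared positions the enrichment in kEpiSCs relative to EpiSCs had a median ratio of 0.970, from 0.609 to 1.36, and was lower in kEpiSCs at 9 of 13. Over all 4595 overlapping pairs the median ratio was 0.932, and 2617 were lower in kEpiSCs. The lowest ratios were at Atf3, 41131 and 10578 bp upstream (0.609 and 0.639), and the highest at the Atf4 peak in Cacna1i (1.36) and at Jdp2 (1.23). Whether any of these ratios exceeds the spread between replicates could not be tested. Fold enrichment in the kEpiSC list counts each read as 0.7752 and in the EpiSC list as 1, so the ratio also carries the scaling of the libraries.

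**Figure D4:**
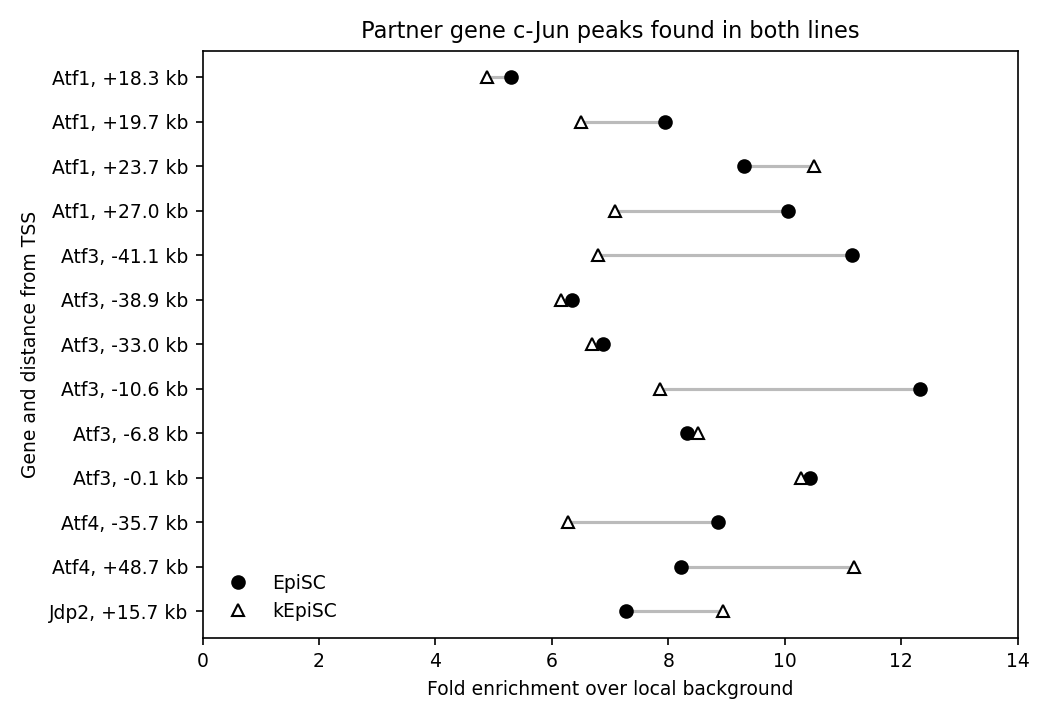
Rows are the 13 c-Jun peaks at the partner genes that were found in both lines, named by gene and distance from the TSS in kb, and the x axis is fold enrichment over local background. Filled circles are EpiSCs and open triangles kEpiSCs; 9 of 13 are lower in kEpiSCs (2617 of 4595 over all pairs), and the values have no error bars because each line has 1 list.

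Related genes give the setting. Each list is to be read beside all protein-coding genes. Of these, 50.7% had a peak within 50 kb in EpiSCs and 27% in kEpiSCs, with medians of 1 and 0 peaks per gene. Of 14 other ATF, CREB and BATF family genes, 13 had a peak within 50 kb in EpiSCs and 9 in kEpiSCs, with medians of 1.5 and 1 peaks per gene, where the 9 partner genes had medians of 4 and 0. The highest-scoring EpiSC peaks of that list were at Creb3 (11.6-fold), Creb5 (11.2-fold, within 1 kb of the TSS and with a full CRE), Crebl2 (10.9-fold) and Creb3l3 (9.29-fold). The Creb5 and Creb3l3 peaks were nearest to their own gene. Those of Creb3 and Crebl2 lay 42345 and 35601 bp from the TSS and were nearest to Msmp and Gpr19. All 7 Jun and Fos genes had a peak in EpiSCs and 6 in kEpiSCs, with a median of 3 in each line. At their highest-scoring EpiSC peaks Fosl1 had 17.8-fold and Jun 15.9-fold enrichment, where the partner gene peaks reached 12.3-fold. The Jun peak was nearest to Jun itself, and the Fosl1 peak to AI837181. Of 5 CREB co-activators 2 had a peak in EpiSCs and 1 in kEpiSCs, the strongest at Crtc3, a co-activator controlled by cAMP, with 12.4-fold in EpiSCs and 9.41-fold in kEpiSCs. Of 12 kinases and targets around ATF4, 9 had a peak in EpiSCs and 4 in kEpiSCs. They were led in EpiSCs by the stress-induced inhibitor of growth signalling Ddit4 (13.5-fold), the pseudokinase Trib3 (11.3-fold) and the kinase Eif2ak3 (9.39-fold), which responds to unfolded protein and had 14.3-fold enrichment in kEpiSCs. The Ddit4 and Eif2ak3 peaks were nearest to their own gene, and the Trib3 peak to Gm14164.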

How the data were processed

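ChIP with a c-Jun antibody and input libraries were sequenced for EpiSCs and kEpiSCs, 2 of each kind per line. Per the study's methods, the authors aligned with Bowtie2 to mm10, retained reads with a unique position and ran MACS2 with its defaults. Besides these, bcl2fastq, SAMtools and bedtools appear in the submitters' processing notes, all without a version in the sources used here. The deposited peak lists give an integer score, the fold enrichment (a ratio over local background), the −log10 p-value and −log10 q-value and the summit offset of each peak. The description of replicate 1 names the list, which was taken to stand for the line. Whether replicate 2 entered it is not stated, so folds and reads may be those of 1 library or of both. Total read numbers were not used here. The reads and the background at each summit were solved from fold and −log10 p with the Poisson model of MACS, and all peaks in both lists were reproduced within 0.01 in −log10 p, with 1 read worth 1 in EpiSCs and 0.7752 in kEpiSCs. In that model the fold has 1 added to both the weighted reads and the background, so it is below their plain ratio. Peaks had a median of 10 reads (5 to 159) and 14 reads (7 to 67).

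TSSs were those of curated RefSeq transcripts, 31210 in all, on GRCm38.p6, the assembly of mm10, and 0 peak ends fell outside their chromosome. Peaks were shared when they overlapped by at least 1 bp. Members, gene lists, words and alternatives were chosen with earlier results of these data known. The named genes are the 9 members, with the peak of highest −log10 q in each line and any peak with a full CRE, and up to 4 genes with the highest −log10 q of each further list. Scores, folds and ranks are the authors' values, and rank in a list is by −log10 q. Shares carry 95% Wilson intervals, which treat peaks as independent although peaks of 1 gene are neighbours. Steps were tested on simulated data, where reads of 1000 peaks were solved correctly in 100% at each of 2 scalings. Those peaks were made with the same formula and the scaling was supplied, so only the solving was checked. The fit of the scaling itself was not tested. There were no tests across genes. Python 3.11.15, pandas 2.3.3, scipy 1.17.1, pysam 0.24.0, samtools 1.23.1 and matplotlib 3.10.9 were used. Alternatives changed the distance, the TSS set, the score, the overlap and the motif window.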

Additional observations from a re-analysis of the deposited data

How the results depend on the processing

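Of 66 planned values under other settings, 21 moved, and 45 stayed within the limits set for a like value (1.5 times for a count). The number of genes with an EpiSC peak, 9 as reported, fell to 6 at 10 kb, 7 with the nearest TSS only and 7 in the higher-scoring part of the list. With a distance of 10 kb, EpiSCs had 8 member peaks, 25% with an AP-1 site and 0 with a full CRE, and kEpiSCs had 3 peaks at 2 genes, 33.3% with an AP-1 site and 0 with a CRE. With 100 kb, kEpiSCs had 25 peaks at 8 genes. Keeping peaks only at their nearest TSS left 19 peaks in EpiSCs and 9 in kEpiSCs. In the higher-scoring part of each list there were 22 EpiSC peaks (68.2% with an AP-1 site, median 8.26-fold) and 9 kEpiSC peaks, of which 100% were found in both lines. These values were not taken over the higher-scoring part of all peaks, so they do not set the 9 genes apart. Asking for 50% overlap of both peaks lowered the share found in both lines to 17.1% in EpiSCs and 46.7% in kEpiSCs. Allowing 1 mismatch gave AP-1 shares of 73.2% in EpiSCs (80.1% of all peaks) and 93.3% in kEpiSCs (88.3% of all peaks) and a CRE share of 17.1% in EpiSCs (18.8% of all peaks). Leaving out the peaks of 1 gene, Atf1 or Atf3, was chosen as an alternative after seeing the data. Without the peaks of Atf1 the CRE share was 0 in both lines. The other 14 values of these steps stayed within the limits set, though not all were near the main value. Without the peaks of Atf3, the share found in both lines fell from 31.7% to 21.9% in EpiSCs, below the 28.3% of the list. In kEpiSCs it fell from 86.7% to 77.8% (75.8% of the list), and the CRE share rose from 6.67% to 11.1%. No paired analysis was possible because the peaks of a line were deposited as 1 list without replicate values, which also kept any replicate from being left out. The weakest peaks rest on 5 reads in EpiSCs and 8 in kEpiSCs, so a peak in 1 list alone does not show a difference between the lines.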
